A study of Mus musculus with 20 samples.

Results

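Bergmann glia are the radial astrocytes of the cerebellar cortex. Their somata lie around those of Purkinje cells, and their processes cross the molecular layer, where they clear glutamate from Purkinje cell synapses and buffer potassium. Other astrocytes of the cerebellum lie in the granular layer and in the white matter. The 10 genes described here mark these cells: Gdf10, Hopx, Slc1a3, Slc1a2, Aqp4, Gfap, Fabp7, A2m, Timp4 and Aldh1l1. They were chosen by name as markers, with earlier results of these data known, and make up 10 of the 55401 genes in the deposited count table. Their counts are set beside the shares of all genes as a description and not as a test.

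The study asked whether an AAV that carries an shRNA against the expanded CAG repeat of Atxn7 lowers the mutant product and protects the cerebellum of SCA7 mice. It holds 20 cerebella, 1 per library, all from mice of the C57BL/6J strain. SCA7 140Q/5Q knock-in mice carry an expanded repeat in 1 Atxn7 allele; 5 received AAV-shA4, and 5 received AAV-shSCR with a scrambled shRNA. These 10 libraries and those of 4 untreated WT mice carry the label 25w, and those of 3 AAV-shA4 WT mice and 3 untreated ones are labelled 9w. The labels do not give the day from which the weeks run; the study counts from the injection, and for the later set its number of weeks is not that of the labels. The vectors were of serotype PHP.eB, injected behind the eye, with the H1 promoter driving the shRNA and the CMV promoter driving eGFP. Untreated mice were given saline. SCA7 mice without AAV and WT mice given AAV were not sequenced at 25w, so the effect of genotype and that of AAV cannot be told apart here. Both SCA7 groups were compared to the same 4 WT mice.

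Reads counted per library ranged from 33758498 to 40621179 in AAV-shSCR SCA7 mice, 31465586 to 44708557 in AAV-shA4 SCA7 mice and 39036803 to 54570503 in WT mice at 25w. At 9w they ranged from 36245752 to 39208298 with AAV-shA4 and from 47455917 to 49212593 without. Levels are given as CPM, counts of a gene scaled to a common library size with edgeR's TMM factors. A log2 fold change of 1 is a doubling, and it is given as the first group named over the second. A gene passed when its adjusted p was under 0.05 by edgeR's quasi-likelihood test, and it was called when its fold change was also above 1.3 in either direction. The p-values judge a difference against the spread between these mice and do not show how the result would hold in another cohort. In bulk tissue fewer cells of a type cannot be told apart from less RNA per cell.

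Atxn7, the targeted gene, was counted over both alleles. Its levels were 45.6, 53.4, 48.1, 50.5 and 49.98 CPM in AAV-shSCR SCA7 mice, 44.4, 47.5, 49.6, 47.5 and 51.7 CPM in AAV-shA4 SCA7 mice and 45.7, 50.2, 49.3 and 48.8 CPM in WT mice at 25w. At 9w they were 38.2, 41.3 and 41.0 CPM with AAV-shA4 and 38.7, 43.1 and 37.6 CPM without. The 3 groups at 25w overlap, and so do the 2 at 9w, and Atxn7 passed in none of the 4 comparisons within a time point. The log2 fold change between the SCA7 groups was −0.041 (edgeR adjusted p = 0.842). These counts show neither the RNA of the mutant allele alone nor the protein. The study measured the protein by western blot, at an earlier time, and reported less mutant ATXN7 in the cerebellum with AAV-shA4. Markers of the tissue were present: the most abundant gene of the granule cell list, Cbln3, and that of the Purkinje cell list, Itpr1, had reads in every library.

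Some libraries lay at the edge of their group in these genes. AAV-shA4 SCA7 replicate 2 was the highest of its group for 8 of the 10 genes, all but Aqp4 and Gfap and by little for Hopx, and lay 0.15 above its group on the log2 scale at the median. At 9w, AAV-shA4 replicate 3 was high for Gfap at 311 CPM, and untreated replicate 3 was high for Timp4 at 261 CPM and low for Aqp4 at 365 CPM. WT replicate 1 at 25w was high for Slc1a2 at 969 CPM. No library was left out of the main results.

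Levels between genes are compared as CPM per kb of merged exons. In WT mice at 25w Slc1a3 had the highest level at 174 ± 8.85 CPM per kb, followed by Hopx at 110 ± 4.29 CPM per kb (mean ± SD, n = 4). Aqp4 at 67.7 ± 3.90 CPM per kb and Slc1a2 at 66.0 ± 5.21 CPM per kb did not differ beyond the spread between mice, nor did Gfap at 47.1 ± 3.41 CPM per kb and Gdf10 at 42.6 ± 2.78 CPM per kb. Timp4 came next at 30.2 ± 1.08 CPM per kb. Fabp7, Aldh1l1 and A2m were the lowest, at 21.2 ± 1.69, 18.6 ± 1.35 and 17.4 ± 1.01 CPM per kb, and each of them overlapped with its neighbour. The order rests on the length used. With the median length of the annotated transcripts, Slc1a2 was the highest at 1609 CPM per kb, with a length of 538.5 bases against 1108 bases for Slc1a3.

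**Figure D1:**
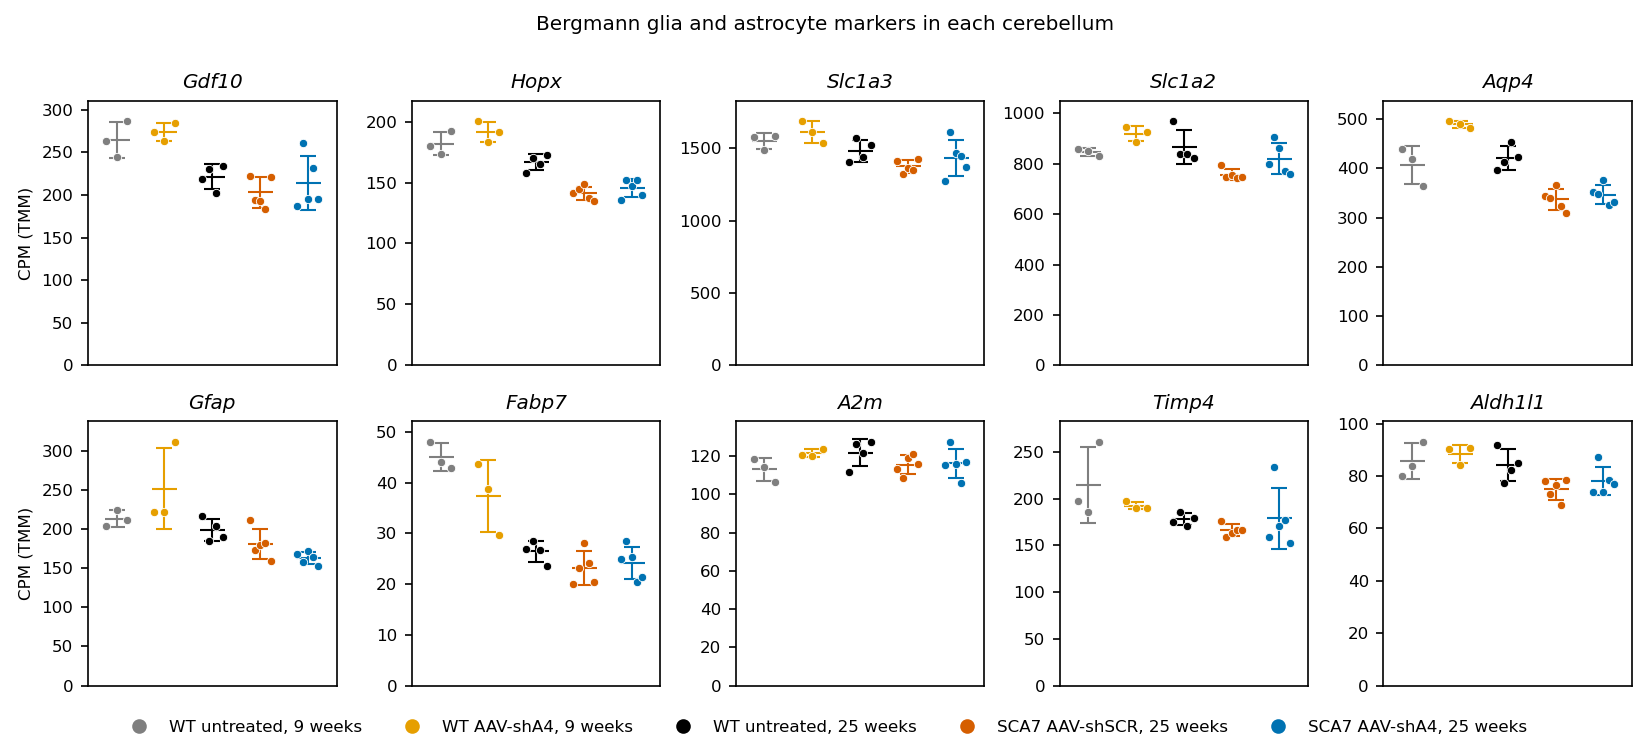
Level of each of the 10 genes in each mouse of the 5 groups, in CPM with TMM scaling. Bars give the group mean and SD.

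The first question was whether these genes differed between AAV-shSCR SCA7 mice and WT mice at 25w. Each of the 10 had a lower mean in the SCA7 mice, and the water channel gene Aqp4, the Bergmann glia gene Hopx and the glutamate transporter gene Slc1a2 fell. These were 3 of the 10 genes, against 8.65% of all 14862 genes tested that passed as lower. None of the 10 passed as higher, against 6.89% of all genes. The groups did not overlap for 3 of the 10, against 16.8% of all genes. An unadjusted p under 0.05 was reached by 4 of the 10, the 3 named and Aldh1l1, against 28.7% of all genes, and the count that passed was 4 by DESeq2 and 3 by limma. The median log2 fold change was −0.15 for the 10 genes and 0.0017 for all genes. None was called, as the largest log2 fold change was −0.32.

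The same question was asked of AAV-shA4 SCA7 mice, which were compared to the same 4 WT mice. Aqp4, Hopx and the intermediate filament gene Gfap fell, while Slc1a2 did not pass. Of the 10 genes 3 passed as lower, against 8.11% of all genes tested, and 0 as higher, against 5.47%. The groups did not overlap for 3 of the 10, against 13.4% of all genes. An unadjusted p under 0.05 was reached by 3 of the 10, against 26.6% of all genes. DESeq2 and limma also gave 3 genes, as did every fit with 1 library left out. The median log2 fold change was −0.093 for the 10 genes and 0.0061 for all genes, and 9 of the 10 were below zero.

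Whether AAV-shA4 and AAV-shSCR differ in SCA7 mice was asked last at 25w. In none of the 10 genes did the groups separate. The count that passed in edgeR was 0 of 10 as lower, against 0% of all genes, and 0 of 10 as higher, against 0%. Likewise 0 of 10 had groups that do not overlap, against 1.51% of all genes. An unadjusted p under 0.05 was reached by 2 of the 10, Gfap and Slc1a2, and by 1222 of the 14862 genes, or 8.22%. DESeq2 and limma passed 0 of the 10. The median log2 fold change was 0.058 for the 10 genes and 0.00021 for all genes, and 9 of the 10 were above zero. Leaving out AAV-shA4 replicate 2, the differences of A2m, Fabp7, Gdf10 and Timp4 turned negative, at −0.027, −0.0092, −0.0073 and −0.013.

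**Figure D2:**
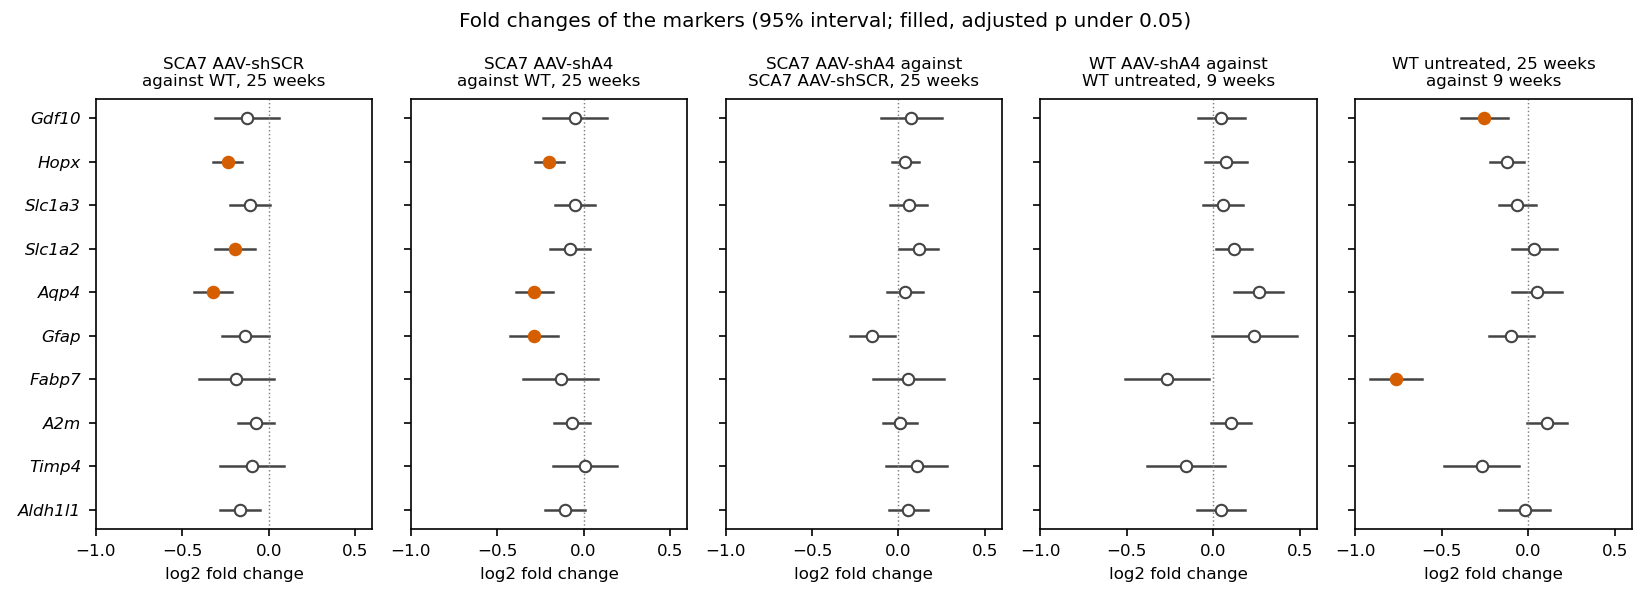
Log2 fold change of each of the 10 genes with its 95% interval in the 5 comparisons. Filled symbols have an adjusted p under 0.05 in edgeR.

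Hopx (ENSMUSG00000059325, chr5:77086988-77115121, minus strand) encodes a small homeodomain protein without DNA binding and marks Bergmann glia in the adult cerebellum. Its levels were 141, 144, 149, 137 and 135 CPM in AAV-shSCR SCA7 mice. In AAV-shA4 SCA7 mice they were 136, 152, 147, 152 and 139.6 CPM, and in WT mice 158, 170.3, 165.7 and 172.99 CPM. All 10 SCA7 mice lay below all 4 WT mice, and the 2 SCA7 groups overlap. Against WT mice Hopx had a log2 fold change of −0.24 with AAV-shSCR (standard error 0.040, 95% interval −0.32 to −0.15, edgeR adjusted p = 0.000622). With AAV-shA4 it was −0.20 (standard error 0.040, 95% interval −0.28 to −0.11, edgeR adjusted p = 0.00311). Over fits with 1 library left out the adjusted p of the first ranged from 0.000271 to 0.00354 and that of the second from 0.00172 to 0.0155. Between the SCA7 groups the log2 fold change was 0.041 (adjusted p = 0.801), which did not pass.

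Gdf10 (ENSMUSG00000021943, chr14:33923587-33937983, plus strand) encodes a growth factor of the TGF-beta superfamily that Bergmann glia express. It was measured at 223, 195, 193, 183 and 221 CPM in AAV-shSCR SCA7 mice, 187, 261, 195, 232 and 196 CPM in AAV-shA4 SCA7 mice and 219, 231, 202 and 235 CPM in WT mice. The 3 groups overlap, and replicate 2 of the AAV-shA4 group was the highest of the 14 mice. Unlike Hopx it did not pass, with a log2 fold change of −0.13 with AAV-shSCR (standard error 0.087, 95% interval −0.31 to 0.059, edgeR adjusted p = 0.370). With AAV-shA4 it was −0.050 (standard error 0.087, 95% interval −0.23 to 0.13, edgeR adjusted p = 0.773). Without that library the latter was −0.13.

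Slc1a2 (ENSMUSG00000005089, chr2:102658659-102790784, plus strand) encodes the glutamate transporter GLT-1. Its levels were 795, 747, 754, 742 and 747 CPM in AAV-shSCR SCA7 mice and 969, 837, 838 and 822 CPM in WT mice. Those of AAV-shA4 SCA7 mice were 800.2, 907, 864, 772 and 759.7 CPM. Each AAV-shSCR mouse lay below each WT mouse, whereas the AAV-shA4 mice spread over the range of both other groups. In both AAV-shSCR and WT mice replicate 1 was the highest, and the other WT mice lay close together. Slc1a2 had a log2 fold change against WT mice of −0.19 with AAV-shSCR (standard error 0.055, 95% interval −0.31 to −0.078, edgeR adjusted p = 0.0236). Without WT replicate 1 it was −0.14 (adjusted p = 0.0876), and without AAV-shSCR replicate 4 −0.19 (adjusted p = 0.0539), so the result does not hold without either. In the other settings tried, its adjusted p ranged from 0.00374 to 0.0431. With AAV-shA4 the log2 fold change against WT mice was −0.078 (standard error 0.055, 95% interval −0.19 to 0.038, edgeR adjusted p = 0.401), and without WT replicate 1 it was −0.021 (adjusted p = 0.844). The SCA7 groups differed by 0.12 (standard error 0.052, 95% interval 0.0059 to 0.23, edgeR adjusted p = 0.594), and they overlap.

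Slc1a3 (ENSMUSG00000005360, chr15:8634124-8710764, minus strand) encodes GLAST, the main glutamate transporter of Bergmann glia. Its levels ranged from 1324 to 1429.5 CPM in AAV-shSCR SCA7 mice, 1276 to 1610.2 CPM in AAV-shA4 SCA7 mice and 1405 to 1569.6 CPM in WT mice. The ranges overlap, with the highest and the lowest of the 14 mice both in the AAV-shA4 group. Against WT mice its log2 fold change was −0.11 with AAV-shSCR (standard error 0.054, 95% interval −0.22 to 0.0069, edgeR adjusted p = 0.202). With AAV-shA4 it was −0.048 (standard error 0.054, 95% interval −0.16 to 0.066, edgeR adjusted p = 0.627), and without AAV-shA4 replicate 2 −0.094 (adjusted p = 0.229). So 1 of the glutamate transporter genes passed, with AAV-shSCR alone, and the other did not.

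Aqp4 (ENSMUSG00000024411, chr18:15389496-15410982, minus strand) encodes the water channel of astrocyte endfeet. Its levels were 344, 340.1, 367, 324 and 309.9 CPM in AAV-shSCR SCA7 mice. In AAV-shA4 SCA7 mice they were 352, 348, 376, 325 and 332 CPM, and in WT mice 397, 413, 455 and 423 CPM. Every SCA7 mouse lay below every WT mouse, and the SCA7 groups overlap. Compared to WT mice, the log2 fold change of Aqp4 was −0.32 with AAV-shSCR (standard error 0.051, 95% interval −0.43 to −0.21, edgeR adjusted p = 0.000360). It was −0.28 with AAV-shA4 (standard error 0.051, 95% interval −0.39 to −0.18, edgeR adjusted p = 0.00118). These were the smallest adjusted p of the 10 genes in both comparisons, and with 1 library left out they ranged from 0.000151 to 0.00199 and from 0.000554 to 0.00658. The SCA7 groups differed by 0.039 (adjusted p = 0.864).

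Gfap (ENSMUSG00000020932, chr11:102887336-102900912, minus strand) encodes the intermediate filament of astrocytes. It was measured at 168.4, 158, 172.2, 163.9 and 153 CPM in AAV-shA4 SCA7 mice, 211, 173.4, 179.8, 181.6 and 159 CPM in AAV-shSCR SCA7 mice and 216, 184, 204 and 190.2 CPM in WT mice. The AAV-shA4 mice lay close together and below all WT mice. AAV-shSCR mice spread wider, and replicate 1 lay between the 2 highest WT mice. The log2 fold change against WT mice was −0.29 with AAV-shA4 (standard error 0.065, 95% interval −0.42 to −0.15, edgeR adjusted p = 0.00727). This adjusted p ranged from 0.00137 to 0.0262 with 1 library left out and from 0.000296 to 0.0305 in the other settings. With AAV-shSCR the log2 fold change was −0.13 (standard error 0.065, 95% interval −0.27 to 0.0034, edgeR adjusted p = 0.185), and without AAV-shSCR replicate 1 it was −0.20 (adjusted p = 0.0230). The SCA7 groups differed by −0.15 (standard error 0.062, 95% interval −0.28 to −0.020, edgeR adjusted p = 0.563), and without AAV-shSCR replicate 1 by −0.089 (adjusted p = 0.663). With each library left out in turn the difference ranged from −0.19 to −0.089.

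Fabp7 (ENSMUSG00000019874, chr10:57784881-57788450, plus strand) encodes the brain fatty acid binding protein of radial glia and Bergmann glia. Its levels were 20.03, 23.2, 28.2, 24.2 and 20.4 CPM in AAV-shSCR SCA7 mice, 24.95, 28.5, 25.3, 20.5 and 21.4 CPM in AAV-shA4 SCA7 mice and 27.0, 28.6, 26.8 and 23.5 CPM in WT mice. The 3 groups overlap. Its log2 fold change was −0.19 (edgeR adjusted p = 0.240) with AAV-shSCR and −0.13 (edgeR adjusted p = 0.457) with AAV-shA4, and neither passed.

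A2m (ENSMUSG00000030111, chr6:121635376-121679227, plus strand) and Timp4 (ENSMUSG00000030317, chr6:115241892-115252205, minus strand) encode secreted protease inhibitors. A2m ranged from 109 to 121 CPM with AAV-shSCR, 106 to 127 CPM with AAV-shA4 and 112 to 128 CPM in WT mice. Neither group separated from the WT mice, with log2 fold changes of −0.075 (edgeR adjusted p = 0.333) and −0.067 (edgeR adjusted p = 0.421). Timp4 ranged from 159 to 176 CPM with AAV-shSCR, 152 to 235 CPM with AAV-shA4 and 171.3 to 186 CPM in WT mice. Its log2 fold change was −0.097 (edgeR adjusted p = 0.514) with AAV-shSCR. With AAV-shA4 it was 0.0079 (edgeR adjusted p = 0.970), and without replicate 2, the highest of the 14 mice, −0.11 (adjusted p = 0.133). Timp4 lies within Syn2 on the opposite strand. The study describes strand-specific libraries, but whether the counting used the strand is not given, so reads of Syn2 in its count cannot be told apart.

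Aldh1l1 (ENSMUSG00000030088, chr6:90486427-90600203, plus strand) encodes a folate enzyme found in all astrocytes. Its levels were 78.1, 73.3, 76.4, 68.8 and 78.4 CPM in AAV-shSCR SCA7 mice. They were 74.0, 87.2, 73.8, 78.5 and 77.1 CPM in AAV-shA4 SCA7 mice and 92.0, 77.5, 82.2 and 85.0 CPM in WT mice. The AAV-shSCR mice lay at the low end, with 2 of them above the lowest WT mouse. The log2 fold change of −0.17 (standard error 0.055, 95% interval −0.28 to −0.049, edgeR adjusted p = 0.0518) had an adjusted p just above the limit. It passed by DESeq2 (adjusted p = 0.0294), and in edgeR with only the 2 groups fitted (adjusted p = 0.0375), with robust dispersion (adjusted p = 0.0475) and without a filter (adjusted p = 0.0491). Without WT replicate 2 it was −0.20 (adjusted p = 0.0279). It also passed without AAV-shA4 replicate 1 (adjusted p = 0.0466) or replicate 2 (adjusted p = 0.0248). The range was 0.0248 to 0.178 over the libraries left out and 0.0294 to 0.0836 over the other settings. With AAV-shA4 it was −0.11 (edgeR adjusted p = 0.223).

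Further astroglial genes were described in 5 lists, which were also chosen with earlier results of these data known. Beside their counts stand the shares of all genes that passed in the same direction. Among genes of transmitter handling, 3 of 7 fell with AAV-shSCR, against 8.65% of all genes, and 3 of 7 with AAV-shA4, against 8.11%, with medians of −0.23 and −0.20. The same genes, Slc6a9, Glul and Dao, passed in both. Slc6a9, the glial glycine transporter, was measured at 149, 129, 139.7, 122 and 124 CPM with AAV-shSCR, 124, 119, 124, 139 and 131 CPM with AAV-shA4 and 165.7, 151, 159 and 159 CPM in WT mice. Neither SCA7 group overlaps with the WT mice. Its log2 fold changes were −0.26 (edgeR adjusted p = 0.00438) and −0.32 (edgeR adjusted p = 0.000984). Glul, which makes glutamine from glutamate, had −0.29 (edgeR adjusted p = 0.00469) with AAV-shSCR, where its range of 717 to 869 CPM overlaps with 857 to 1073 CPM in WT mice. With AAV-shA4 it had −0.20 (edgeR adjusted p = 0.0420), with up to 0.136 in the alternatives. Dao had −0.23 (edgeR adjusted p = 0.0297) and −0.21 (edgeR adjusted p = 0.0480), with up to 0.0952 and 0.144.

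Of 12 genes for ions, water and junctions beside Aqp4, 5 fell with AAV-shSCR, against 8.65% of all genes, and 5 with AAV-shA4, against 8.11%, with medians of −0.042 and −0.028. In each comparison 6 of the 12 were above zero and 0 passed as higher, with highest log2 fold changes of 0.069 and 0.199. An unadjusted p under 0.05 was reached by 5 with AAV-shSCR, against 28.7% of all genes, and 8 with AAV-shA4, against 26.6%. Mlc1, which did not pass, ranged from 231 to 264 CPM with AAV-shA4, above the 205 to 225.5 CPM of WT mice. With AAV-shSCR Mlc1 ranged from 216 to 245 CPM, which overlaps with WT mice. Among those that fell were the potassium channels Kcnj10 and Kcnj16, the connexin Gja1 and the pump subunit Atp1b2. Kcnj10, which encodes Kir4.1, was measured at 273, 254, 276, 247 and 267 CPM with AAV-shSCR, 262, 254, 294, 281 and 279 CPM with AAV-shA4 and 333, 296, 319 and 299 CPM in WT mice. All 10 SCA7 mice lay below the 4 WT mice. Its log2 fold changes were −0.24 (edgeR adjusted p = 0.00204) and −0.19 (edgeR adjusted p = 0.0139), and the second reached 0.0535 when all 20 libraries were fitted together. Kcnj16 had −0.26 (edgeR adjusted p = 0.00166) and −0.28 (edgeR adjusted p = 0.00111). Gja1 had −0.26 (edgeR adjusted p = 0.00186) and −0.18 (edgeR adjusted p = 0.0258), the latter with up to 0.0721 in the alternatives, and Atp1b2 had −0.13 (edgeR adjusted p = 0.0340), with up to 0.0962, and −0.17 (edgeR adjusted p = 0.00752).

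Of 11 other Bergmann glia genes, 1 fell with AAV-shSCR, against 8.65% of all genes, and 2 with AAV-shA4, against 8.11%, with medians of −0.077 and −0.070. The first count is near the share of all genes. Ptprz1 had −0.11 (edgeR adjusted p = 0.0252) with AAV-shSCR, and Ptch1 had −0.15 (edgeR adjusted p = 0.0241) and Gli1 −0.22 (edgeR adjusted p = 0.0363) with AAV-shA4. None of these 3 passed in every fit with 1 library left out, and their adjusted p reached 0.0732, 0.0722 and 0.118. The 2 most abundant genes of the list per kb, Sept4 and Gria1, did not pass, with −0.077 (adjusted p = 0.186) and −0.055 (adjusted p = 0.485) for AAV-shSCR.

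Of 28 genes of astrocyte identity and metabolism, 8 fell with AAV-shSCR, against 8.65% of all genes, and 9 with AAV-shA4, against 8.11%, with medians of −0.11 and −0.098. Above zero were 5 and 9 of the 28, and 0 passed as higher, against 6.89% and 5.47% of all genes. Those with an unadjusted p under 0.05 were 10 and 14, against 28.7% and 26.6% of all genes. Aldoc, which encodes aldolase C, had the smallest adjusted p in both. It was measured at 1624, 1410.2, 1521, 1423 and 1478 CPM with AAV-shSCR, 1458, 1444, 1519, 1693 and 1426 CPM with AAV-shA4 and 2382, 2398, 2108 and 2522 CPM in WT mice. Every SCA7 mouse lay below every WT mouse. Aldoc had log2 fold changes of −0.66 (edgeR adjusted p = 6.07e-07) and −0.64 (edgeR adjusted p = 1.00e-06). Aldoc is also expressed by a part of the Purkinje cells, and the part of each cell type in its result was not tested. Agt, the angiotensinogen gene of astrocytes, had −0.45 (edgeR adjusted p = 0.000145) and −0.59 (edgeR adjusted p = 1.01e-05). The neurotensin receptor gene Ntsr2 had −0.28 (edgeR adjusted p = 0.00102) and −0.29 (edgeR adjusted p = 0.000797), and the glycogen regulator gene Ppp1r3c had −0.21 (edgeR adjusted p = 0.00609) and −0.26 (edgeR adjusted p = 0.00143). The secreted proteins Sparcl1 and Clu and the protease Htra1 passed in both as well, with −0.18 (adjusted p = 0.00498), −0.19 (adjusted p = 0.0222) and −0.19 (adjusted p = 0.0335) for AAV-shSCR and −0.15 (adjusted p = 0.0144), −0.27 (adjusted p = 0.00191) and −0.18 (adjusted p = 0.0426) for AAV-shA4. Htra1 lost its result with 5 libraries left out in turn for AAV-shSCR and 7 for AAV-shA4, with up to 0.1002 and 0.112. Clu lost that for AAV-shSCR without AAV-shSCR replicate 4 or 5 or WT replicate 4, with up to 0.0880. Id4 passed with AAV-shSCR alone, at −0.20 (adjusted p = 0.00936), and the transcription factor genes Sox9 and Sox2 with AAV-shA4 alone, at −0.30 (adjusted p = 0.00655) and −0.26 (adjusted p = 0.00902).

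Of 36 reactive astrocyte genes tested, 7 rose with AAV-shSCR, against 6.89% of all genes, and 7 with AAV-shA4, against 5.47%. In each comparison 3 fell, which is near the 8.65% and 8.11% of all genes. The medians were 0.10 and 0.11. Serpina3n was measured at 5.40, 5.18, 5.13, 5.60 and 4.59 CPM with AAV-shSCR, 6.48, 4.87, 4.76, 4.57 and 5.49 CPM with AAV-shA4 and 4.07, 4.09, 3.55 and 3.43 CPM in WT mice. Each SCA7 mouse lay above each WT mouse. Its log2 fold changes were 0.45 (edgeR adjusted p = 0.00853) and 0.47 (edgeR adjusted p = 0.00716). Srgn had 0.42 (edgeR adjusted p = 0.000321) and 0.47 (edgeR adjusted p = 0.000125), Cp had 0.28 (edgeR adjusted p = 0.00169) and 0.31 (edgeR adjusted p = 0.000799), and Serping1 had 0.29 (edgeR adjusted p = 0.00321) and 0.24 (edgeR adjusted p = 0.0147). The last lost its result without WT replicate 3, and its adjusted p reached 0.0847 in the alternatives. Stat3 also passed in both, at 0.14 (adjusted p = 0.0153) and 0.13 (adjusted p = 0.0238), and neither held in every fit with 1 library left out, with up to 0.0594 and 0.0796. With AAV-shSCR the others that rose were Psmb8 at 0.74 (adjusted p = 0.0118) and Clcf1 at 0.52 (adjusted p = 0.0137), and B3gnt5 at −0.33 (adjusted p = 0.00497), Sphk1 at −0.35 (adjusted p = 0.0177) and Amigo2 at −0.33 (adjusted p = 0.0296) fell. With AAV-shA4 the others that rose were Cd109 at 0.74 (adjusted p = 0.00793) and Fkbp5 at 0.50 (adjusted p = 0.0147), and Aspg at −0.52 (adjusted p = 0.0118), Sphk1 at −0.34 (adjusted p = 0.0230) and Cd44 at −0.30 (adjusted p = 0.0428) fell. Clcf1 lost its result without WT replicate 4 (adjusted p = 0.0534) and with all 20 libraries fitted together (adjusted p = 0.0538). Fkbp5 lost it without WT replicate 3 (adjusted p = 0.0540) and Sphk1 with AAV-shSCR without WT replicate 2 (adjusted p = 0.0623). Amigo2, Sphk1 with AAV-shA4 and Cd44 lost theirs with 3 or more libraries left out in turn. Vim, the second filament gene of astrocytes, was at 198 ± 5.49 CPM with AAV-shSCR and 204 ± 12.3 CPM in WT mice and did not pass, with −0.045 (adjusted p = 0.486). With AAV-shA4 Vim was at 190.3 ± 7.38 CPM and had −0.10 (adjusted p = 0.0960). Srgn and Psmb8 are also expressed by other cells. For none of the genes of this list was the part of each cell type in its result tested.

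**Figure D3:**
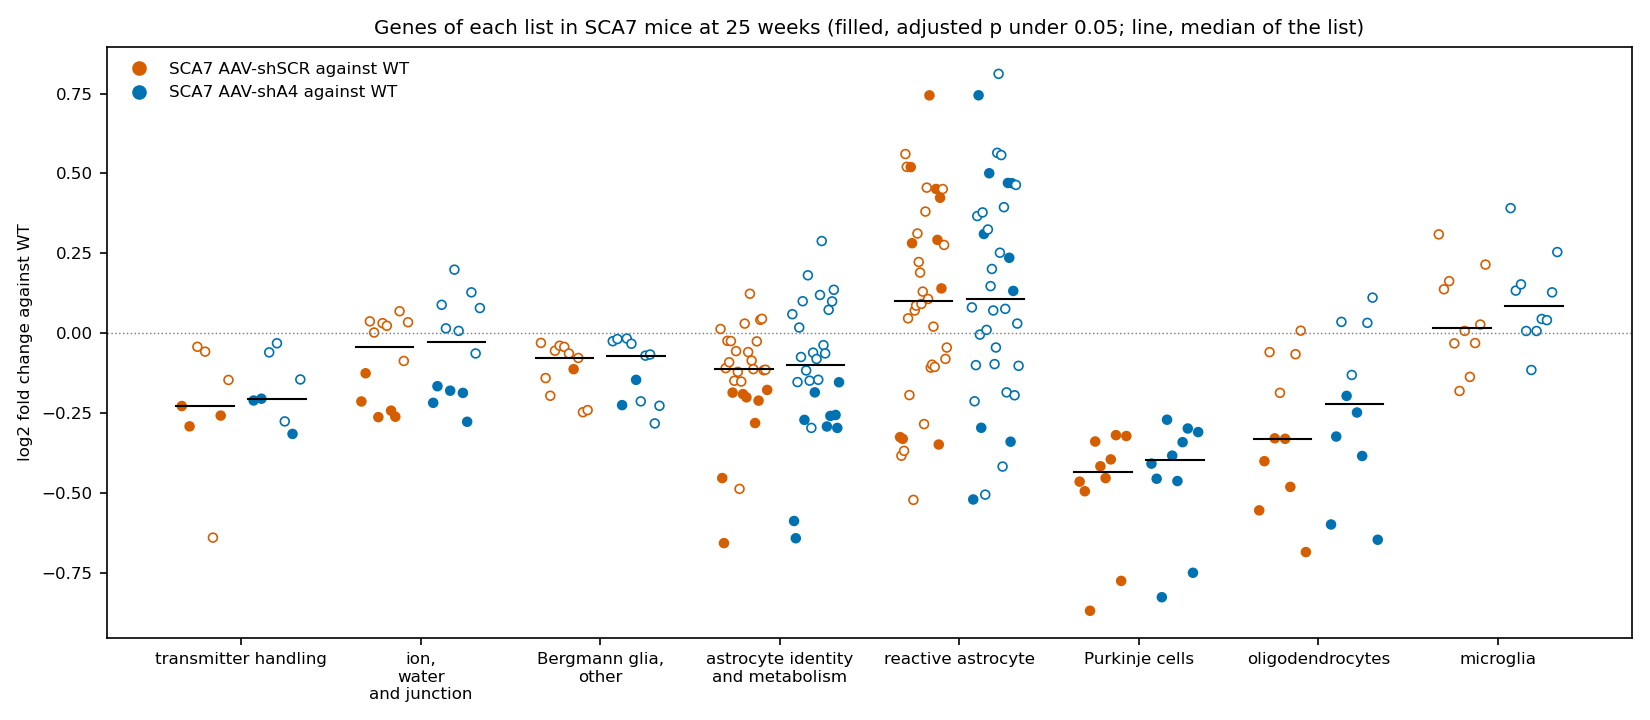
Log2 fold change against WT mice of each gene of 8 lists in AAV-shSCR and AAV-shA4 SCA7 mice. Filled symbols have an adjusted p under 0.05 in edgeR, and lines give list medians.

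Not all of these list results held with 1 library left out in turn. For transmitter handling, ions, other Bergmann glia, identity and reactive genes, 2 of 3, 4 of 5, 0 of 1, 6 of 8 and 6 of 10 genes passed in every such fit with AAV-shSCR, and 1 of 3, 4 of 5, 0 of 2, 8 of 9 and 5 of 10 with AAV-shA4.

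Between the SCA7 groups 0 genes of the 5 astroglial lists passed in edgeR. Those with an unadjusted p under 0.05 were 0 of 7 for transmitter handling, 1 of 12 for ions, water and junctions, 1 of 11 for other Bergmann glia genes, 5 of 28 for identity and metabolism and 2 of 36 for reactive genes, against 8.22% of all genes. Over all genes 24 passed by DESeq2 and 0 by limma. The medians of the lists were 0.017, 0.034, 0.0062, 0.037 and 0.014.

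Markers of other cells moved beside those of astroglia. Of 10 Purkinje cell genes 10 fell with AAV-shSCR, against 8.65% of all genes, and 10 with AAV-shA4, against 8.11%, with medians of −0.43 and −0.40. Their summed level was 8245, 7906, 8163, 7434 and 8279.6 CPM with AAV-shSCR, 7514, 8202, 8745, 8488 and 8058 CPM with AAV-shA4 and 10598, 11922, 11092 and 11060 CPM in WT mice. Every SCA7 mouse lay below every WT mouse, and the most abundant gene, Itpr1, had −0.42 (edgeR adjusted p = 9.18e-06) and −0.38 (edgeR adjusted p = 2.51e-05). Of 10 oligodendrocyte genes 6 fell in each SCA7 group, against the same shares, with medians of −0.33 and −0.22. They summed to 4911, 4912, 5047, 4672 and 4196 CPM, 4659, 4949, 5078, 5301 and 5044 CPM and 6770, 5719.8, 6631 and 5866 CPM in the same order, and every SCA7 mouse lay below every WT mouse, while the SCA7 groups overlap. Mbp, the most abundant, had −0.33 (edgeR adjusted p = 0.00229) and −0.25 (edgeR adjusted p = 0.0181). None of the Purkinje cell and oligodendrocyte genes was at 0 in any library, and their part in the astroglial results was not tested.

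Of all genes 8.65% fell and 6.89% rose with AAV-shSCR, and 8.11% fell and 5.47% rose with AAV-shA4. Of 9 granule cell genes 2 fell and 1 rose with AAV-shSCR and 2 fell with AAV-shA4, with medians of −0.020 and −0.13. Microglia genes did not pass in either group, with 0 of 10 in edgeR, and summed to 266, 221, 215, 206 and 203 CPM, 222, 268, 209.6, 219.9 and 213 CPM and 237, 212, 216 and 209.6 CPM in AAV-shSCR, AAV-shA4 and WT mice. Of 9 endothelial and mural genes 3 fell and 1 rose with AAV-shSCR and 4 fell and 1 rose with AAV-shA4. Oligodendrocyte precursors, ependyma, choroid plexus and meninges had 0 of 6 genes each in both comparisons in edgeR. Genes with an unadjusted p under 0.05 with AAV-shSCR, against 28.7% of all genes, were 10 of 10 for Purkinje cells, 4 of 9 for granule cells, 7 of 10 for oligodendrocytes, 0 of 6 for their precursors, 1 of 10 for microglia, 5 of 9 for endothelium and mural cells, 0 of 6 for ependyma, 0 of 6 for choroid plexus and 0 of 6 for meninges. With AAV-shA4, against 26.6%, they were 10 of 10, 8 of 9, 6 of 10, 1 of 6, 2 of 10, 6 of 9, 0 of 6, 0 of 6 and 1 of 6 in the same order. The choroid plexus sum was 3297, 36.2, 515, 327 and 2897 CPM over the AAV-shA4 SCA7 mice, and replicate 2, the highest of its group for 8 of the 10 genes, was the lowest for this tissue.

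The early question was whether AAV-shA4 changed these genes in WT mice at 9w. None of the 10 passed, while 3 separated the groups: Aqp4, Slc1a2 and A2m. In edgeR 0 of the 10 passed as lower, against 0.0136% of the 14733 genes tested, and 0 as higher, against 0.0543%. An unadjusted p under 0.05 was reached by 3 of the 10, namely Aqp4, Slc1a2 and Fabp7, and by 1639 genes or 11.1% of all. DESeq2 passed 1 of the 10, Aqp4, and limma 0. The groups did not overlap for 3 of the 10, against 16% of all genes. The median log2 fold change was 0.064 for the 10 genes and −0.000099 for all genes.

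Aqp4 was measured at 496, 491 and 482 CPM with AAV-shA4 and 439, 419 and 365 CPM without at 9w. Each treated mouse lay above each untreated one, of which replicate 3 was the lowest. Its log2 fold change was 0.26 (standard error 0.064, 95% interval 0.12 to 0.40, edgeR adjusted p = 0.214). It was 0.27 (adjusted p = 0.0108) by DESeq2, and the adjusted p ranged from 0.0108 to 0.211 over the settings and from 0.120 to 0.519 over the libraries left out. Without untreated replicate 3 the log2 fold change was the smallest, at 0.19.

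Gfap was measured at 221, 222 and 311 CPM with AAV-shA4 and 203, 224 and 211 CPM without at 9w. Replicate 3 of the treated mice stood above all others, and the other 2 lay within the untreated range. This library was also high in the reactive list, which summed to 777 CPM against 695 and 673 CPM in replicates 1 and 2. Its microglia genes summed to 239 CPM against 201 and 190 CPM. For Gfap the log2 fold change was 0.24 (standard error 0.11, 95% interval −0.0088 to 0.48, edgeR adjusted p = 0.461), and without this library it was 0.053. Slc1a2 levels were 945, 888 and 926 CPM with AAV-shA4 and 859, 852 and 829.7 CPM without, which do not overlap, with a log2 fold change of 0.12 (standard error 0.048, 95% interval 0.013 to 0.22, edgeR adjusted p = 0.399). Fabp7 was at 43.6, 38.8 and 29.7 CPM with AAV-shA4 and 48.1, 44.1 and 42.8 CPM without, and replicate 3 of the treated mice was the lowest. The groups overlap, and its log2 fold change was −0.27 (standard error 0.11, 95% interval −0.51 to −0.026, edgeR adjusted p = 0.404), and without this replicate −0.13 (adjusted p = 0.392). A2m had 0.10 (edgeR adjusted p = 0.491), Hopx 0.073 (edgeR adjusted p = 0.652), Slc1a3 0.055 (edgeR adjusted p = 0.719), Gdf10 0.046 (edgeR adjusted p = 0.808) and Aldh1l1 0.045 (edgeR adjusted p = 0.819). With 1 library left out these ranged from 0.062 to 0.14, 0.039 to 0.12, 0.020 to 0.086, −0.0052 to 0.11 and −0.0028 to 0.11 in the same order. Timp4 had −0.16 (edgeR adjusted p = 0.586), and without untreated replicate 3 it turned to 0.0060 (adjusted p = 0.986).

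Of the 5 astroglial lists 0 genes passed at 9w in edgeR, with 0, 3, 3, 5 and 9 genes with an unadjusted p under 0.05 for transmitter handling, ions, other Bergmann glia, identity and reactive genes, which hold 7, 12, 11, 28 and 36 tested genes, against 11.1% of all genes. Over all genes 10 passed in edgeR, 130 in DESeq2 and 12 in limma. The list medians were −0.011, 0.037, 0.073, −0.028 and 0.087. Vim was at 244, 221 and 238 CPM with AAV-shA4 and 211, 199.7 and 188 CPM without, groups that do not overlap, with 0.23 (edgeR adjusted p = 0.234). Of the other cell types 1 gene passed, Ccdc153 of the 6 ependyma genes, at 1.77 (edgeR adjusted p = 0.0352). Their counts with an unadjusted p under 0.05, against 11.1% of all genes, were 1 of 10 for Purkinje cells, 5 of 9 for granule cells, 4 of 10 for oligodendrocytes, 0 of 6 for their precursors, 2 of 10 for microglia, 4 of 9 for endothelium and mural cells, 4 of 6 for ependyma, 0 of 6 for choroid plexus and 1 of 6 for meninges. The ependyma genes summed to 35.8, 35.6 and 39.5 CPM with AAV-shA4 and 25.7, 23.3 and 31.7 CPM without.

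The last question was how untreated WT mice differed between 25w and 9w. Fabp7 and Gdf10 fell, and Fabp7 was the only one of the 10 genes that was called in any comparison. Of the 10 genes 2 passed as lower, against 11.1% of all 14875 genes tested, and 0 as higher, against 11.8%. With levels scaled within the 7 libraries of this fit, the groups did not overlap for 4 of the 10, against 33.8% of all genes. With levels scaled over all 20 libraries, as printed here, they did not for 3, since Timp4 overlaps by a small margin. An unadjusted p under 0.05 was reached by 4 of the 10, against 36.9% of all genes. The count that passed was 3 in DESeq2 and 2 in limma. The median log2 fold change was −0.081 for the 10 genes and 0.0059 for all genes. The time points are separate sets of libraries, so age cannot be told apart from other differences between the 2 sets.

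Fabp7 was measured at 27.0, 28.6, 26.8 and 23.5 CPM at 25w and 48.1, 44.1 and 42.8 CPM at 9w. Each mouse at 25w lay well below each mouse at 9w. The log2 fold change was −0.76 (standard error 0.067, 95% interval −0.91 to −0.62, edgeR adjusted p = 0.000150), and it ranged from −0.80 to −0.71 with 1 library left out, where the adjusted p ranged from 0.000130 to 0.00163. Gdf10 was at 219, 231, 202 and 235 CPM at 25w and 263, 245 and 287 CPM at 9w. The groups do not overlap, and replicate 3 at 9w was the highest. Its log2 fold change was −0.26 (standard error 0.061, 95% interval −0.39 to −0.12, edgeR adjusted p = 0.0153). Without that library it was −0.20 (adjusted p = 0.0546), and with replicate number as a block and every library kept it was −0.28 (adjusted p = 0.0605), so the result does not hold in either. Over the other settings the adjusted p ranged from 0.000486 to 0.0605.

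Hopx at 158, 170.3, 165.7 and 172.99 CPM and 180.2, 173.3 and 192 CPM also separated the time points but did not pass, with a log2 fold change of −0.12 (standard error 0.044, 95% interval −0.22 to −0.026, edgeR adjusted p = 0.0668). By DESeq2 it was −0.12 (adjusted p = 0.0434), and over the settings the adjusted p ranged from 0.0434 to 0.123. Timp4 at 175, 186, 171.3 and 179.9 CPM and 198, 186 and 261 CPM did not pass either, with −0.27 (edgeR adjusted p = 0.0702), and replicate 2 at 25w lay just above replicate 2 at 9w. Without replicate 2 at 9w Timp4 passed, at −0.36 (adjusted p = 0.0286), and without replicate 3 at 9w, the highest, it was −0.11 (adjusted p = 0.131). Over the libraries left out its adjusted p ranged from 0.0286 to 0.149. A2m had 0.11 (edgeR adjusted p = 0.159) and passed without replicate 1 at 25w, at 0.15 (adjusted p = 0.0377). Gfap had −0.098 (edgeR adjusted p = 0.252), Slc1a3 −0.063 (edgeR adjusted p = 0.369), Aqp4 0.052 (edgeR adjusted p = 0.605), Slc1a2 0.035 (edgeR adjusted p = 0.698) and Aldh1l1 −0.021 (edgeR adjusted p = 0.843). Aqp4 turned to −0.023 (adjusted p = 0.803) without replicate 3 at 9w, and Slc1a2 to −0.024 (adjusted p = 0.669) without replicate 1 at 25w.

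Of all genes 11.1% were lower and 11.8% higher between the time points. Transmitter handling had 3 lower and 0 higher of 7, ions, water and junctions 3 lower and 2 higher of 12, other Bergmann glia genes 2 lower and 3 higher of 11, identity and metabolism 3 lower and 2 higher of 28 and reactive genes 3 lower and 5 higher of 36. The counts of the last 2 lists lie near or below these shares. Their medians were −0.097, −0.054, −0.037, −0.091 and 0.037. With 1 library left out in turn, 0 of 3, 3 of 5, 3 of 5, 3 of 5 and 3 of 8 genes passed in every fit. The 3 genes of transmitter handling, Slc7a10, Slc6a9 and Dao, all lost their result without replicate 3 at 25w and also without replicate 1 at 9w. They passed in 3, 2 and 3 of the 7 fits with 1 library left out, in the same order. Wif1, a Wnt inhibitor gene of Bergmann glia, was measured at 2.10, 1.88, 1.90 and 2.30 CPM at 25w and 4.75, 4.22 and 8.18 CPM at 9w. The groups do not overlap, and its log2 fold change was −1.48 (edgeR adjusted p = 0.00162). Etv5 rose, with 0.46 (edgeR adjusted p = 0.00195), and so did Ptprz1, with 0.24 (edgeR adjusted p = 0.00718). The metallothionein genes Mt1 and Mt2 fell, with −0.60 (edgeR adjusted p = 0.00390) and −0.77 (edgeR adjusted p = 0.00454). The sodium pump subunit gene Atp1b2 fell, with −0.32 (edgeR adjusted p = 0.000600), and the complement gene C4b rose, with 0.98 (edgeR adjusted p = 0.00102). Lcn2 ranged from 1.81 to 22.9 CPM in untreated mice at 9w and from 0.155 to 0.770 CPM at 25w, with −5.11 (edgeR adjusted p = 0.00219) in edgeR and an adjusted p of 0.0881 in limma. In AAV-shA4 WT mice at 9w Lcn2 ranged from 0.263 to 0.652 CPM, as low as at 25w.

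Of the other cell types, 8 of 10 oligodendrocyte genes fell between 9w and 25w, as did 4 of 9 granule cell genes, 1 of 6 oligodendrocyte precursor genes, 2 of 9 endothelial and mural genes and 2 of 6 meninges genes, against 11.1% of all genes. Of microglia genes 4 of 10 rose, as did 1 of 10 Purkinje cell genes and 1 of 9 endothelial and mural genes, against 11.8%. Ependyma and choroid plexus had 0 of 6 each in edgeR. An unadjusted p under 0.05 was found, against 36.9% of all genes, in 4 of 10 for Purkinje cells, 6 of 9 for granule cells, 9 of 10 for oligodendrocytes, 1 of 6 for their precursors, 5 of 10 for microglia, 6 of 9 for endothelium and mural cells, 3 of 6 for ependyma, 0 of 6 for choroid plexus and 3 of 6 for meninges. The oligodendrocyte sum was 6770, 5719.8, 6631 and 5866 CPM at 25w and 8165, 8017 and 8309 CPM at 9w, and their part in the astroglial results was not tested.

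Across the 14 mice at 25w the 10 genes mostly varied together. Of the 45 pairs 44 had a correlation above zero, with a median r of 0.477. No value over pairs of all genes is given, so whether this is particular to the 10 genes was not tested. With group means removed 31 were above zero, with a median of 0.266. Hopx and Aqp4 were the most alike pair at r = 0.853, and r = 0.379 within groups. Gdf10, Slc1a3 and Timp4 kept their likeness within groups, with r = 0.816 for Gdf10 and Slc1a3, 0.814 for Gdf10 and Timp4 and 0.825 for Slc1a3 and Timp4, and AAV-shA4 replicate 2 was the highest of its group in all 3. Of all genes tested, the most like Hopx was Fam131a (r = 0.971, and 0.922 within groups). The most like Aqp4 was Serpinb1a (r = 0.946, and 0.746 within groups). For Gdf10 it was Nat8f1 (r = 0.896), for Slc1a3 Fam107a (r = 0.908), for Slc1a2 Phyhipl (r = 0.924) and for Gfap Adam19 (r = 0.892). Fabp7 was most like Map10 (r = 0.918), A2m like Apba2 (r = 0.913), Timp4 like Icosl (r = 0.957) and Aldh1l1 like AI464131 (r = 0.918). Hopx had 80 genes and Aqp4 34 genes with r above 0.9. All values rest on the same 14 libraries, and no test was made of them.

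Promoter sequences of RefSeq (build GRCm38.p6, 250 bases before to 50 after the start) were at hand for 8 of the 10 genes. They were searched on both strands for the STAT motif TTCNNNGAA, the NFI half-site TTGGCA, the AP-1 motif TGANTCA, the SOX motif ACAAAG and the E-box CACGTG, which are found in 8.30%, 14.1%, 7.81%, 18.7% and 7.15% of all 32851 promoters. Of the 9 promoters of these genes 3 held a motif. The share of all promoters that hold any of these motifs is not given, so 3 of 9 cannot be set against it. The 3 are shown since Hopx passed in both SCA7 groups and Gfap with AAV-shA4 alone. Slc1a3, with the same motif as Gfap, did not pass. Gfap (chr11:102897151-102897450, minus strand) and Slc1a3 (chr15:8710758-8711057, minus strand) hold the STAT motif, and the second start of Hopx (chr5:77095218-77095517, minus strand) the E-box. Capitals mark the motif, and a match is a description and no evidence of binding.

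Gfap: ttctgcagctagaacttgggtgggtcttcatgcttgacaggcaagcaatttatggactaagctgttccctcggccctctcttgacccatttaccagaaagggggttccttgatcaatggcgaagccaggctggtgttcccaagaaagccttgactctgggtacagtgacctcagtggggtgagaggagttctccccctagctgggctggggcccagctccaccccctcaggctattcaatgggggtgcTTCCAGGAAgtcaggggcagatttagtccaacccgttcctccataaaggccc

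Slc1a3: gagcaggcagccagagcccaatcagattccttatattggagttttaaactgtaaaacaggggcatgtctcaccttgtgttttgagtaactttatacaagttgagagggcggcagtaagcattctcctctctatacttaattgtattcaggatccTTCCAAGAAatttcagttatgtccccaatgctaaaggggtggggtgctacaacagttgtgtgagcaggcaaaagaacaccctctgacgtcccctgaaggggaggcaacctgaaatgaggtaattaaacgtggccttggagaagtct

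Hopx: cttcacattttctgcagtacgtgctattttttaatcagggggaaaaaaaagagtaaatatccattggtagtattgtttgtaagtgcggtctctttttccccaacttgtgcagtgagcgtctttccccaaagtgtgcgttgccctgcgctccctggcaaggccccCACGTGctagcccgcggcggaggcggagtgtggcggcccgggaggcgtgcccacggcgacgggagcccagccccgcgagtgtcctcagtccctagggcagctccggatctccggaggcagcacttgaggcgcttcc

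The samples limit these results in 2 ways. Each group holds 3 to 5 mice, and whether differences as small as those of Slc1a3 and A2m could be found with so few was not tested. Counts of bulk cerebellum do not show in which cells Aqp4, Hopx, Gfap or Slc1a2 were lower.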

How the data were processed

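The authors deposited raw counts per gene, made from trimmed and filtered reads mapped to mm10 and not normalized. The submitters' processing notes name bcl2fastq 2.20.0.422, cutadapt 1.10, Bowtie2 2.2.8, STAR 2.5.3a and HTSeq 0.6.1p1. The libraries were made with a stranded kit, and whether the counting used the strand is not given in the sources used here. Of 55401 genes 55141 matched GENCODE M21, 260 were left out, and the 21897 protein-coding ones were kept. The count table was analysed in R 4.3.3 with edgeR 4.0.16 (TMM factors, quasi-likelihood test, genes kept by filterByExpr at 10 counts per library and 15 in total), and with limma 3.58.1 and DESeq2 1.42.0 as alternatives. Adjusted p-values follow Benjamini and Hochberg, over all genes tested in a comparison. The 14 libraries at 25w, the 6 at 9w and the 7 of untreated WT mice were fitted separately, with common biological coefficients of variation of 0.0790, 0.0729 and 0.0784. Replicates of a group differed by 4.73 to 25.1 in chi-squared per degree of freedom over 32 pairs, where counting noise alone gives about 1. The methods were tested on simulated data, for which no values are given here.

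The 10 genes and all lists were chosen with earlier results of these data known, and the lists were written from general knowledge. They cover transmitter handling, ions, water and junctions, other Bergmann glia genes, astrocyte identity and metabolism and reactive astrocytes (38 genes, 36 tested), and markers of Purkinje cells, granule cells, oligodendrocytes and their precursors, microglia, endothelium and mural cells, ependyma, choroid plexus and meninges. Named are the 10 genes in every comparison, Atxn7, from each astroglial list genes that passed and abundant ones per kb, from other lists single genes that are abundant or passed, and the gene most like each of the 10. The lists were described by counts and medians, without a test of the list. Alternatives tried were the tools, RLE and upper quartile factors, no filter, all genes of the table, other sets of libraries, robust dispersion, a replicate block, the median transcript length and leaving out each library in turn. For the lists these alternatives were chosen after seeing the data.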

Additional observations from a re-analysis of the deposited data

Results flagged for a closer look

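Among the 10 genes, 30 groups of 4 or 5 libraries were examined for a value that stands apart from the others of its group, and 2 were found, both for Slc1a2. WT replicate 1 at 25w lies at 968.6 CPM, a gap of 0.890 of the range of its group. AAV-shSCR SCA7 replicate 1 lies at 795.1 CPM, a gap of 0.771. About 1 in 20 groups would be found by chance. Both values were kept, and the cause was not tested.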

How the results depend on the processing

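The replicate numbers of the labels were examined for a pairing of mice. Between libraries of the same number, the correlation of deviations from the group means ran from −0.219 to 0.476 over 13 pairs at 25w, with 3 above 0.1, from −0.0868 to 0.0815 over 3 pairs at 9w, and from −0.151 to 0.0328 over 3 pairs between the time points. No pairing was used. With replicate number as a block, the genes that passed between 25w and 9w were 1502 in place of 3419, and those of the 10 genes were 1 in place of 2. At 9w the block gave 75 genes that passed in place of 10 and 37 called in place of 8.

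Between the SCA7 groups, 24 genes passed and 5 were called by DESeq2, 2 passed when only these 2 groups were fitted, and the range over libraries left out was 0 to 1, in place of 0. At 9w the genes called were 20 with all 20 libraries, 16 with all genes of the table, 53 by DESeq2, 26 without a filter, 19 with robust dispersion and 1 to 43 with 1 library left out, in place of 8. Those that passed were 45, 21, 130, 37, 27 and 1 to 73 in the same order, in place of 10. Among the libraries left out, the highest counts came without AAV-shA4 replicate 3. Of the 10 genes 1 passed at 9w by DESeq2 in place of 0. Between 25w and 9w, 2272 to 3344 genes passed with 1 library left out, and 1 to 3 of the 10 genes.

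Some differences changed sign with 1 library left out, all of them without an adjusted p under 0.05. Between the SCA7 groups the log2 fold change ranged from −0.027 to 0.040 for A2m, −0.0092 to 0.14 for Fabp7, −0.0073 to 0.12 for Gdf10 and −0.013 to 0.16 for Timp4. With AAV-shA4 against WT mice at 25w that of Timp4 ranged from −0.11 to 0.061, and it was −0.0089 by limma voom. At 9w the range was −0.0028 to 0.11 for Aldh1l1, −0.0052 to 0.11 for Gdf10 and −0.25 to 0.0060 for Timp4. Between 25w and 9w it was −0.069 to 0.042 for Aldh1l1, −0.023 to 0.11 for Aqp4 and −0.024 to 0.060 for Slc1a2.

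Others without an adjusted p under 0.05 kept their sign but moved by over 1.5 times. With AAV-shSCR against WT mice the range was −0.11 to −0.053 for A2m. With AAV-shA4 it was −0.13 to −0.0051 for Gdf10, −0.094 to −0.0090 for Slc1a3, −0.12 to −0.021 for Slc1a2, −0.20 to −0.080 for Fabp7, −0.11 to −0.036 for A2m and −0.15 to −0.062 for Aldh1l1. Between the SCA7 groups it was 0.022 to 0.065 for Hopx, 0.014 to 0.099 for Slc1a3, 0.077 to 0.14 for Slc1a2, 0.0089 to 0.072 for Aqp4, −0.19 to −0.089 for Gfap and 0.015 to 0.078 for Aldh1l1. At 9w it was 0.039 to 0.12 for Hopx, 0.020 to 0.086 for Slc1a3, 0.053 to 0.32 for Gfap, −0.40 to −0.13 for Fabp7 and 0.062 to 0.14 for A2m, and between 25w and 9w −0.091 to −0.039 for Slc1a3, −0.14 to −0.058 for Gfap, 0.065 to 0.15 for A2m and −0.36 to −0.11 for Timp4.

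For the 10 genes, 526 log2 fold changes with 1 library left out kept sign and result, 15 changed sign, 6 gained an adjusted p under 0.05 and 3 lost it. In the other settings 472 kept them, 1 changed sign, 6 gained and 1 lost. Levels per kb moved with the median transcript length for all but Gdf10. Of the counts of passing genes in the astroglial lists, 500 stayed close to the main count with 1 library left out and 50 moved. In other settings 451 stayed close and 29 moved. A count that stayed close does not show that the same genes passed, and single genes were lost as given above.

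The main limits are the group sizes of 3 to 5 mice, the lack of AAV-treated WT mice and of SCA7 mice without AAV at 25w, and the shared WT mice. The time points hold separate sets of libraries. Aqp4 and Hopx in both SCA7 groups and Gfap with AAV-shA4 passed in every alternative, while Slc1a2 with AAV-shSCR was lost without either of 2 libraries and Gdf10 between time points without 1 library or with the replicate block. Which cells differ, and the cause, was not tested.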
